A study of Homo sapiens with 7 samples.

Results

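The 37 genes of the mitochondrial genome were taken as every gene whose name starts with MT- among the 60234 genes of the deposited expression table. They comprise 13 mRNA genes, 2 rRNA genes and 22 tRNA genes. RNA had been taken from cardiomyocytes derived from the established human induced pluripotent stem cell line WTC-11, matured for 35 days. Before collection they took up an ASO (antisense oligonucleotide, a synthetic strand made to base-pair with 1 transcript) passively, at 2 uM for 96 h. The control group received a scrambled ASO (3 libraries) and the other group an ASO against MYH7B, labelled anti-MYH7b (4 libraries). All libraries come from 1 cell line, no label gives a changed genotype, and both groups had an ASO, so there is no untreated group. The labels do not say that replicates came from separate cultures or differentiations, so the p-values measure the spread between these libraries, which may be technical.

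Levels are in TPM (a transcript's part of its library after correction for length), so each library sums to the same total and its depth is unknown. The column of MYH7B ASO replicate 1 follows another gene order than the gene names beside it. The comparisons therefore use 3 libraries in each group, which are scrambled ASO replicates 1, 2 and 3 and MYH7B ASO replicates 2, 3 and 4. Values are given in that order throughout.

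Mitochondrial DNA is a small circle that heart muscle cells carry in many copies. Both of its strands, named heavy and light, are transcribed by the polymerase POLRMT into long precursors, which are cut at the tRNAs that lie between the other genes. The proteins it encodes are subunits of respiratory complexes I, III and IV and of the ATP synthase, complex V. After cutting, most of the mRNAs receive a short poly-A tail from the enzyme MTPAP, and the rRNAs receive a shorter one, whereas the light-strand mRNA MT-ND6 is known to carry little or no tail. Poly-A selection, which the labels give for these libraries, keeps RNA by that tail. The shares of the classes below are thus shares of selected RNA.

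The ends of the 13 mRNAs are shown because the tail is part of the message in several of them. In GENCODE 29 on GRCh38, 6 of the 13 genes stop before their stop codon is complete and 7 hold a whole one. Each line gives the last 24 bases of a gene, 5′ to 3′ on its coding strand, with the encoded letters of the stop codon in capitals.
MT-ND1: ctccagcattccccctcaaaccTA
MT-ND2: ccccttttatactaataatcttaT
MT-ND3: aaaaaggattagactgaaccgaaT
MT-ND4: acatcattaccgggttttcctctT
MT-CYB: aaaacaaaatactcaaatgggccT
MT-CO3: tctccatctattgatgagggtctT
MT-ND4L: aacctaaacctactccaatgcTAA
MT-ND5: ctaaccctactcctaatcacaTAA
MT-ND6: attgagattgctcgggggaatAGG
MT-CO1: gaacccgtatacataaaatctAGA
MT-CO2: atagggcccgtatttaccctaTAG
MT-ATP8: cattcattgcccccacaatccTAG
MT-ATP6: ctctacctgcacgacaacacaTAA
In the first 6 lines the adenines of the tail complete the codon. The 7 others, MT-ND6 among them, hold a whole stop codon within the gene. In MT-ATP6 the last base of that codon, chrM:9207, is also the first base of MT-CO3. The gene end therefore does not show whether the MT-ATP6 mRNA keeps it or needs the tail.

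Some neighbouring mRNA genes share bases, which matters for how reads are divided between them. MT-ATP6 and MT-CO3 share only chrM:9207. MT-ATP8 and MT-ATP6 share the 46 bases chrM:8527-8572, and MT-ND4L and MT-ND4 share the 7 bases chrM:10760-10766. The shared bases are in capitals, with 20 bases on each side.
MT-ATP8 and MT-ATP6: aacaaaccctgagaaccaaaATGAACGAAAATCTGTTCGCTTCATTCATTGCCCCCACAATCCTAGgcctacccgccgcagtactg
MT-ND4L and MT-ND4: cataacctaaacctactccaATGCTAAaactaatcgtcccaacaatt
The capitals open with the start codon of the second gene and hold the end of the first in another reading frame. A read that covers the shared bases touches both genes, and how such reads were counted is not given. MT-ATP8 (207 bases long) and MT-ND4L (297 bases) are also short genes, and their levels are uncertain. The part of the overlap in those levels was not tested. Whether the authors counted reads by strand is not given in the sources used here. Without strand, RNA of MT-ND6 or of a light-strand tRNA cannot be told apart from heavy-strand precursor that covers the same bases.

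The ASO target was lower in the libraries of its own group. MYH7B stood at 23.0, 36.5 and 25.1 TPM with the scrambled ASO and at 9.30, 5.65 and 6.31 TPM with its own ASO, and the groups did not overlap. The log2 fold change on the log2(TPM + 1) scale was −1.85 (SE 0.24, limma adjusted p = 0.0109). The limma adjusted p was 0.0618 without MYH7B ASO replicate 4, 0.0779 with no filter on low values and 0.0525 with the reordered replicate 1 added. Genes averaging 1 TPM or more numbered 15988, of which 265 (1.66%) passed an adjusted p of 0.05, 29 of them higher (0.181%) and 236 lower (1.48%). After quantile rescaling between libraries that split was 55 higher and 203 lower. Leaving out 1 library at a time gave 53 to 149 calls, the fewest without MYH7B ASO replicate 4, and no filter on low values gave 40.

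The cells carried the markers of their label, and some markers of other cell types were present as well. The 10 cardiomyocyte markers summed to 10764, 11868 and 11235 TPM with the scrambled ASO and to 11253, 8997 and 9034 TPM with the MYH7B ASO. Of the 10, 7 had a log2 fold change below 0 and 6 did not overlap between groups (beside 21.2% of all genes tested). None of the 10 was called by limma (beside 1.66%). Among the 6, TNNI3, ACTN2, MYL7, RYR2 and PLN were lower with the MYH7B ASO. TNNI1 was higher, at 1106, 1302 and 1186 TPM against 2324, 1317 and 1344 TPM. The contractile gene MYH7, not one of the 6, stood at 1207, 1146 and 535 TPM against 568, 256 and 358 TPM, with overlap. The 7 fibroblast markers summed to 2874, 3018 and 5162 TPM with the scrambled ASO and to 1709, 2053 and 1332 TPM with the MYH7B ASO, without overlap. Collagens carry this sum. Of the 7 markers, 6 had a log2 fold change below 0, 2 of them called lower (beside 1.48% of all genes tested). PDGFRA went the other way, at 19.8, 27.8 and 23.5 TPM against 41.1, 32.9 and 34.8 TPM. The 4 smooth muscle markers summed to 964, 934 and 1330 TPM against 543, 723 and 643 TPM. Of the 4, 3 had a log2 fold change below 0, 1 of them called lower (beside the same 1.48%), and CNN1 was above 0. Over all genes tested, 45.2% had a log2 fold change above 0. The 4 endothelial markers summed to 7.61 to 10.4 TPM, nearly all of it KDR, with PECAM1, CDH5 and VWF between 0.00455 and 1.12 TPM, and the 4 pluripotency markers summed to 2.66 to 4.50 TPM. The 3 epithelial markers summed to 386, 507 and 511 TPM against 541, 579 and 583 TPM, without overlap, most of it KRT19. Of the 3, 2 had a log2 fold change above 0. CDH1 was lower without overlap, at 13.6, 14.0 and 16.0 TPM against 4.48, 11.4 and 6.35 TPM. Bulk RNA does not show which cells a marker came from. In it, fewer cells of a type and less RNA per cell cannot be told apart.

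The part of all RNA that was mitochondrially encoded did not differ between the groups beyond the spread of the libraries. It took 33.0%, 33.2% and 27.4% of TPM with the scrambled ASO and 32.6%, 31.2% and 33.6% with the MYH7B ASO. Scrambled ASO replicate 3 was the lowest and the groups overlapped. The means were 31.2% ± 3.27 and 32.5% ± 1.22 (SD, n = 3 each), a difference of 1.29 percentage points (2-sided exact permutation test, p = 0.7). Without scrambled ASO replicate 3 the difference was −0.600 percentage points. With 3 libraries against 3 there are 20 splits and the smallest p is 0.1, so no such test can pass 0.05. Of 27 exact tests on shares and ratios of mitochondrial RNA, the lowest Benjamini-Hochberg adjusted p was 0.822.

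**Figure D1:**
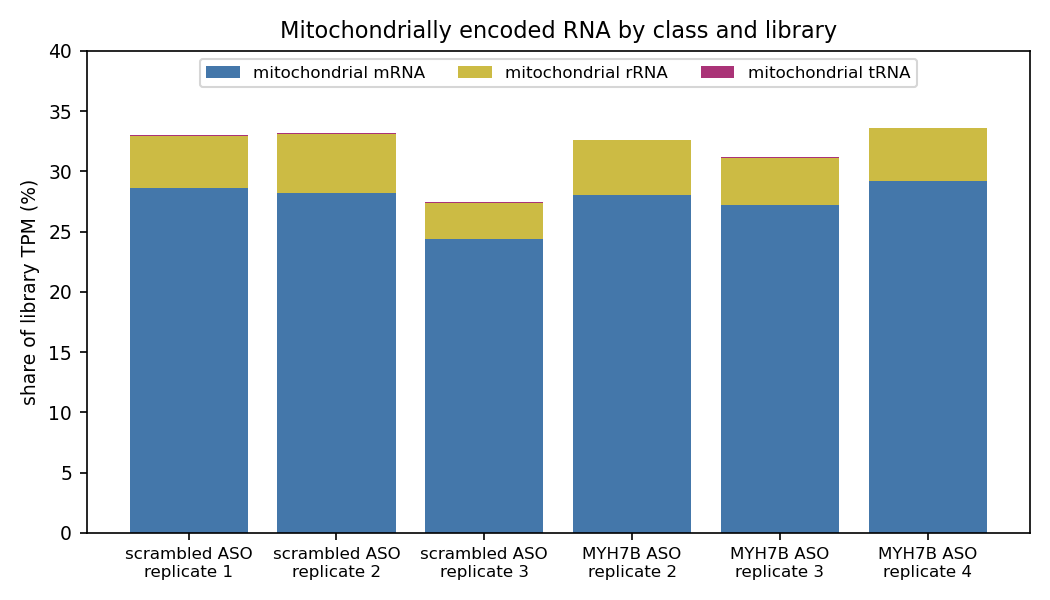
Share of each library's TPM (vertical axis, percent) taken by mitochondrial mRNA, rRNA and tRNA, stacked, with 1 bar for each of the 6 libraries. The bars reach 27.4% to 33.6%, scrambled ASO replicate 3 is the shortest, and the tRNA layer is barely visible.

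The library with the lowest mitochondrial share, scrambled ASO replicate 3, also had the highest fibroblast sum (5162 TPM) and the highest smooth muscle sum (1330 TPM). Any part of fibroblasts or smooth muscle cells in the mitochondrial share was not tested. RNAs without a poly-A tail were also summed, and whether they show how the selection worked was not tested. The sum of a list of 8 of them varied more than any mitochondrial class. Mainly the signal recognition particle RNAs RN7SL1 and RN7SL2, it was 51588, 16800 and 9381 TPM with the scrambled ASO. With the MYH7B ASO it was 18764, 24779 and 62062 TPM. RN7SL2 alone ranged from 6550 to 43687 TPM and RN7SL1 from 2463 to 18033 TPM. The 6 others of the list had a log2 fold change below 0. The spliceosomal RNA RNU2-2P was called lower, at 34.4, 44.2 and 17.2 TPM against 0, 0 and 3.14 TPM (limma adjusted p = 0.0121). RNU1-1 and RMRP were lower without overlap, at 218, 86.5 and 94.0 TPM against 40.1, 56.3 and 56.1 TPM and at 168, 162 and 129 TPM against 18.9, 41.7 and 87.2 TPM, and were not called. Replication histone mRNAs, which end in a stem-loop in place of a tail, summed to 352, 414 and 471 TPM against 685, 503 and 506 TPM, and 22 of the 24 tested had a log2 fold change above 0 (beside 45.2% of all genes), none of them called by limma (beside 1.66%). Their part in the mitochondrial values was not tested.

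Within the mitochondrial total, mRNA took the most in every library, then rRNA, then tRNA. The mRNAs made up 86.7%, 84.9% and 88.9% of it with the scrambled ASO and 85.9%, 87.2% and 86.9% with the MYH7B ASO (means 86.9% ± 1.99 and 86.7% ± 0.66, SD, n = 3 each, exact permutation p = 1). The rRNAs made up 12.97%, 14.8% and 11.0% against 13.9%, 12.6% and 12.99% (12.9% ± 1.94 and 13.2% ± 0.665, exact permutation p = 0.9). The groups overlapped for both classes, and the widest spread was among the scrambled ASO libraries. The tRNAs took 0.307%, 0.210% and 0.121% against 0.158%, 0.180% and 0.134% (0.213% ± 0.0932 and 0.157% ± 0.0230, exact permutation p = 0.5). TPM divides by length, so the long rRNAs count for more in bases. Weighted by gene length, the rRNAs held 18.1% to 22.9% of the mitochondrial total.

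No mitochondrially encoded gene passed the test. Of the 37 genes, 33 averaged 1 TPM or more (13 mRNAs, 2 rRNAs and 18 tRNAs) and none of those had a limma adjusted p under 0.05, beside 1.66% of all genes tested. At an unadjusted p under 0.05 there were 3 of the 33, all tRNAs (MT-TV, MT-TQ and MT-TL2), beside 15.2% of all genes. The groups did not overlap for 4 of the 33, beside 21.2% of all genes. The log2 fold change was above 0 for 15 of the 33, beside 45.2% of all genes, and its median was −0.03 for the 33 and −0.04 for all genes. As shares of the 33, these counts were close to or below the background. With the reordered column of MYH7B ASO replicate 1 added, none of the 33 was without overlap.

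In the authors' deposited table, 26 mitochondrially encoded genes appear, 17 of them with an adjusted p, and none of the 17 was under 0.05, beside 8.71% of all genes with one. At an unadjusted p under 0.05 the authors' deposited table holds 3 of the 26, MT-CO2, MT-CO3 and MT-ND3, beside 14.0% of its genes.

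The mRNAs differed from each other far more than between the groups. Ordered by the mean of the 6 libraries, MT-CO1 (45645 TPM) and MT-ATP8 (44482 TPM) came first, then MT-ND6 (31899 TPM), MT-ND3 (24356 TPM), MT-CO2 (21028 TPM), MT-ATP6 (20878 TPM), MT-CO3 (20523 TPM), MT-ND4 (19877 TPM) and MT-ND4L (15119 TPM). MT-CYB (9467 TPM), MT-ND5 (7864 TPM), MT-ND1 (7742 TPM) and MT-ND2 (7123 TPM) were the lowest. Several neighbours in this order could not be separated. MT-CO1 was above MT-ATP8 in 2 of 6 libraries, MT-ATP8 above MT-ND6 in 5 of 6, MT-CO2 above MT-ATP6 in 2 of 6, and MT-ND5 above MT-ND1 in 2 of 6. MT-ATP6, MT-CO3 and MT-ND4 changed places in 2 of 6 libraries each time. Steps that held in 6 of 6 libraries were MT-ND6 over MT-ND3, MT-ND3 over MT-CO2, MT-ND4 over MT-ND4L, MT-ND4L over MT-CYB, MT-CYB over MT-ND5 and MT-ND1 over MT-ND2. The largest of these gaps, from MT-ND4L to MT-CYB, was 2.73 times the larger SD of the pair, and that from MT-ND3 to MT-CO2 was 0.782 times it.

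**Figure D2:**
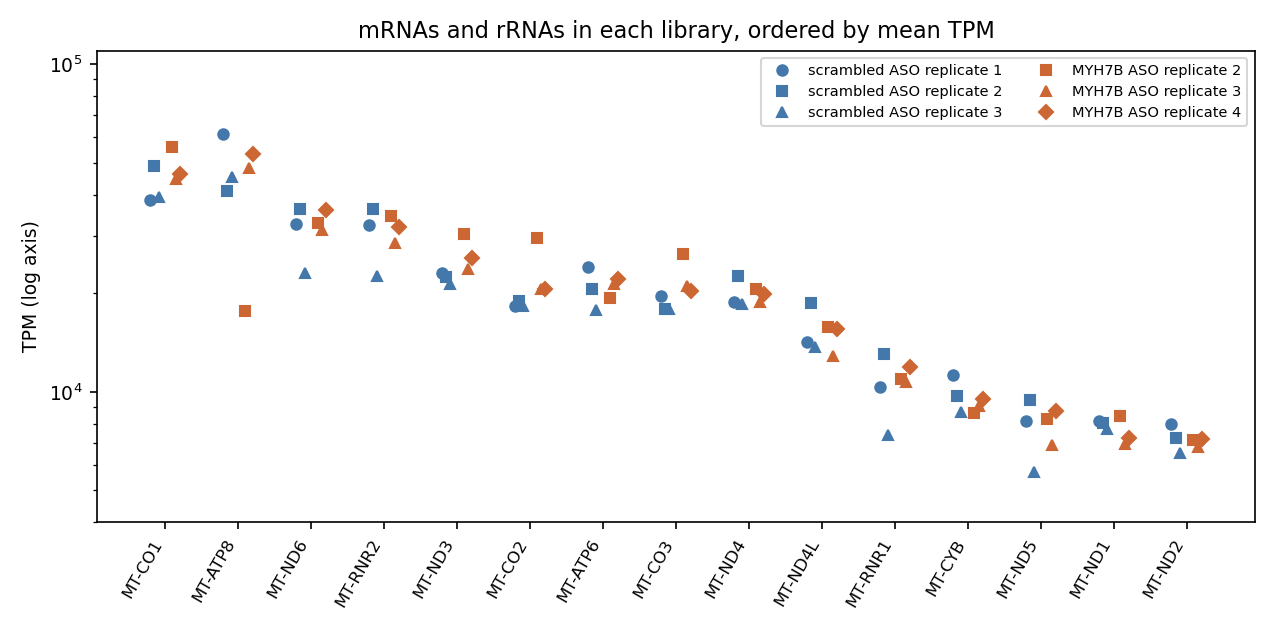
TPM (vertical log axis) of the 13 mRNAs and 2 rRNAs in each of the 6 libraries, 1 marker per library, ordered by mean from left to right. MT-ATP8 in MYH7B ASO replicate 2 (17615 TPM) lies far under the other 5 libraries, and the same library is the highest for MT-CO1, MT-CO2, MT-CO3 and MT-ND3.

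Complex I, the NADH dehydrogenase that feeds electrons into the chain, takes 7 of the mRNAs, which summed to 34.2%, 37.5% and 35.2% of the mitochondrial total with the scrambled ASO and to 37.7%, 34.3% and 35.7% with the MYH7B ASO. The groups overlapped (exact permutation p = 0.7, n = 3 each). MT-ND3, one of the small membrane subunits of its proton-pumping arm, stood at 23011, 22404 and 21283 TPM against 30250, 23644 and 25540 TPM. All 3 MYH7B ASO libraries were above the scrambled ones, replicate 3 by the least. Its log2 fold change was 0.25 (SE 0.12, limma adjusted p = 0.393), and 0.15 without MYH7B ASO replicate 2.

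The other complex I mRNAs overlapped between the groups. MT-ND4, a core subunit of the same arm, stood at 18764, 22573 and 18573 TPM against 20549, 18870 and 19930 TPM, a log2 fold change of −0.01 (SE 0.12, limma adjusted p = 0.982). MT-ND5, another core pump subunit, stood at 8126, 9435 and 5695 TPM against 8276, 6906 and 8745 TPM (log2 fold change 0.06, SE 0.19). For both genes the scrambled ASO libraries spread more widely than the MYH7B ASO libraries. MT-ND1 ranged from 6936 to 8414 TPM over the 6 libraries and MT-ND2 from 6491 to 7966 TPM, the steadiest mRNAs with a coefficient of variation of 7.30% and 7.01%. MT-ND4L followed MT-ND4, with which it shares 1 RNA, at 0.757, 0.828 and 0.737 of its TPM with the scrambled ASO and 0.767, 0.680 and 0.778 with the MYH7B ASO.

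MT-ND6, the only mRNA of the light strand, was among the highest mRNAs in these poly-A selected libraries. It stood at 32549, 36158 and 23047 TPM with the scrambled ASO and at 32682, 31128 and 35827 TPM with the MYH7B ASO, and scrambled ASO replicate 3 was the lowest. Set against the sum of the 12 heavy-strand mRNAs it was 12.8%, 14.7% and 10.4% against 13.2%, 12.9% and 13.99%. As a log2 ratio the means were −2.99 ± 0.25 and −2.90 ± 0.06 (SD, n = 3 each, exact permutation p = 0.7). Its gene lies opposite the heavy-strand transcript that runs from MT-ND5 to MT-CYB, chrM:14149-14673.

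Complex III, which passes electrons from ubiquinol to cytochrome c, has 1 mitochondrial subunit, cytochrome b. MT-CYB stood at 11263, 9725 and 8665 TPM against 8591, 9056 and 9500 TPM, with overlap (log2 fold change −0.12, SE 0.13, limma adjusted p = 0.695). As a share of the mitochondrial total it was 3.41%, 2.93% and 3.16% against 2.63%, 2.90% and 2.83%. These shares did not overlap, and scrambled ASO replicate 2 and MYH7B ASO replicate 3 nearly met (exact permutation p = 0.1, the smallest possible). In the reordered column of MYH7B ASO replicate 1 the share was 4.21%. MT-CYB was the only 1 of the 15 mRNAs and rRNAs whose shares did not overlap, beside 17.9% of all genes after the same scaling. With the mitochondrial total made equal in every library its log2 fold change was −0.18 (limma adjusted p = 0.693).

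Complex IV, cytochrome c oxidase, which hands electrons to oxygen, has its 3 catalytic core subunits encoded here. Their mRNAs summed to 23.2%, 25.9% and 27.6% of the mitochondrial total with the scrambled ASO and to 34.2%, 27.7% and 25.9% with the MYH7B ASO, where replicate 2 stood above all others (exact permutation p = 0.2, n = 3 each). MT-CO1, which holds the site of oxygen reduction, stood at 38558, 48964 and 39382 TPM against 55900, 44802 and 46264 TPM, with overlap (log2 fold change 0.21, SE 0.14, limma adjusted p = 0.525). MT-CO2, which takes electrons from cytochrome c, stood at 18352, 18939 and 18310 TPM against 29468, 20545 and 20552 TPM. MT-CO3, the third core subunit, stood at 19662, 17861 and 17904 TPM against 26383, 21028 and 20299 TPM.

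For both MT-CO2 and MT-CO3 the MYH7B ASO libraries lay above the scrambled ones without overlap, and replicate 2 was far above its group. The log2 fold changes were 0.32 (SE 0.15, limma adjusted p = 0.371) for MT-CO2 and 0.28 (SE 0.13, limma adjusted p = 0.355) for MT-CO3. Without MYH7B ASO replicate 2 they were 0.15 and 0.16. Together with MT-ND3 these were the 3 mRNAs, of 13, that were higher without overlap, beside 7.11% of all genes tested. In the authors' deposited table the shrunken log2 fold changes of MT-CO2, MT-CO3 and MT-ND3 were 0.37, 0.32 and 0.29, with adjusted p of 0.0758, 0.105 and 0.178. As shares of the mitochondrial total these 3 genes overlapped between the groups. With that total made equal in every library the log2 fold changes of MT-CO2, MT-CO3 and MT-ND3 were 0.26, 0.22 and 0.18 (limma adjusted p 0.655, 0.673 and 0.709).

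**Figure D3:**
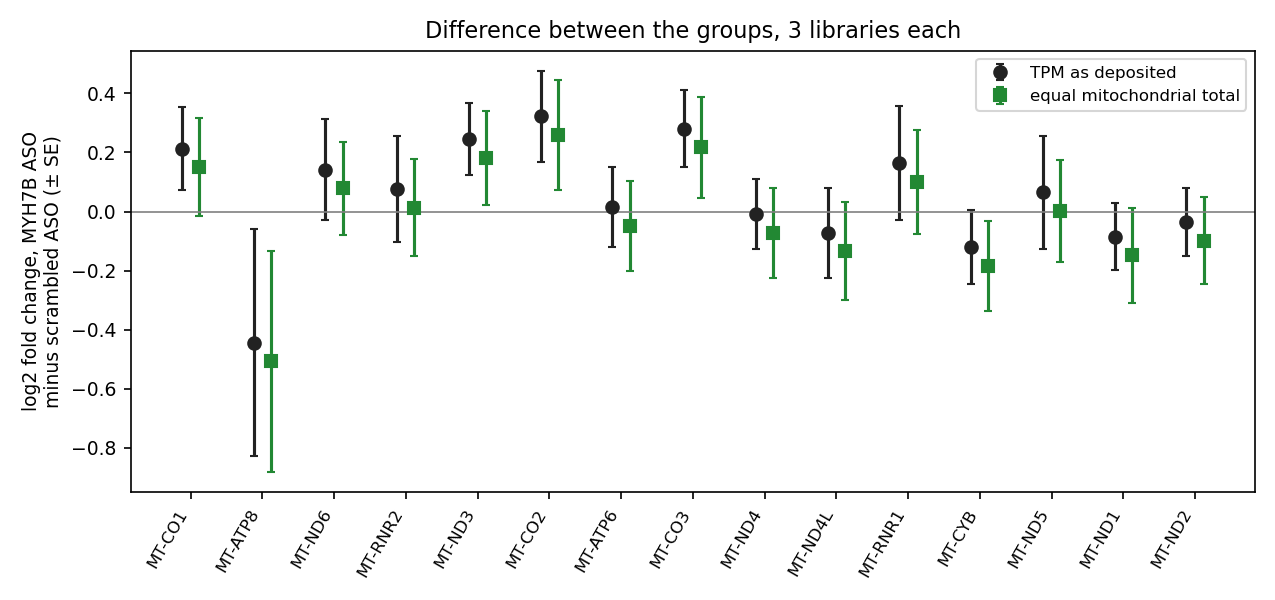
Log2 fold change with its limma standard error (MYH7B ASO minus scrambled ASO, 3 libraries each, on log2(TPM + 1)) for the 13 mRNAs and 2 rRNAs, from TPM as deposited (circles) and with an equal mitochondrial total in every library (squares). The values run from −0.44 for MT-ATP8 to 0.32 for MT-CO2 as deposited, and the equal total moves each of them down by about the same amount.

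Complex V, the ATP synthase, has 2 mitochondrial subunits in its membrane part, and they are translated from 1 shared mRNA whose overlap is printed above. MT-ATP8 varied the most of all mRNAs, with a coefficient of variation of 33.5% over the 6 libraries, while the next highest, MT-CO2, had 20.2%. It stood at 61359, 41145 and 45200 TPM with the scrambled ASO and at 17615, 48228 and 53346 TPM with the MYH7B ASO, where only replicate 2 was low. The log2 fold change was −0.44 (SE 0.38, limma adjusted p = 0.626), and 0.06 without MYH7B ASO replicate 2. In the authors' deposited table its shrunken log2 fold change was −0.10, with an adjusted p of 0.876. Its mean normalized count there was 32867.5 and that of MT-ATP6 163560, the reverse of their order in mean TPM.

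MT-ATP6, which forms the proton channel of the synthase, stood at 24095, 20613 and 17783 TPM against 19414, 21288 and 22075 TPM, with overlap. Its log2 fold change was 0.02 (SE 0.14, limma adjusted p = 0.971) and −0.05 with an equal mitochondrial total. The ratio of MT-ATP8 to MT-ATP6 TPM, which are read from the same mRNA, was 2.55, 2.00 and 2.54 with the scrambled ASO and 0.907, 2.27 and 2.42 with the MYH7B ASO. It was below 1 in MYH7B ASO replicate 2 alone of the 6, and it was 0.763 in the reordered column of MYH7B ASO replicate 1. In MYH7B ASO replicate 2, MT-ATP8 took 5.40% of the mitochondrial total, and 12.4% to 18.6% in the other 5. With MT-ATP8 left out of the total, MT-CO2 took 6.83%, 6.52% and 7.999% against 9.55%, 7.79% and 7.27%, and MT-CO3 took 7.32%, 6.15% and 7.82% against 8.55%, 7.98% and 7.18%. Both overlapped between the groups, and replicate 2 remained the highest of the 6 for each.

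The rRNAs of the mitochondrial ribosome lie on both sides of MT-TV near the start of the heavy-strand transcript. MT-RNR2 (the large subunit rRNA, chrM:1671-3229) stood at 32423, 36213 and 22653 TPM with the scrambled ASO and at 34393, 28553 and 31764 TPM with the MYH7B ASO. MT-RNR1 (the small subunit rRNA, chrM:648-1601) stood at 10375, 13008 and 7377 TPM against 10956, 10752 and 11892 TPM. Both were lowest in scrambled ASO replicate 3 and overlapped between the groups. Their log2 fold changes were 0.08 (SE 0.18, limma adjusted p = 0.881) and 0.16 (SE 0.19, limma adjusted p = 0.731). The ratio of MT-RNR2 to MT-RNR1 was 3.12, 2.78 and 3.07 against 3.14, 2.66 and 2.67, with mean log2 ratios of 1.58 ± 0.09 and 1.49 ± 0.14 (SD, n = 3 each, exact permutation p = 0.4).

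The tRNAs carry amino acids to the mitochondrial ribosome and are cut out of both precursors. They summed to 1013, 695 and 331 TPM with the scrambled ASO and to 515, 561 and 450 TPM with the MYH7B ASO, so scrambled ASO replicates 1 and 3 held the highest and the lowest sum. Light-strand tRNAs made up most of it. The 8 light-strand genes took 83.7%, 85.4% and 92.5% of tRNA TPM with the scrambled ASO and 94.8%, 92.9% and 93.0% with the MYH7B ASO, without overlap (exact permutation p = 0.1, the smallest possible). All 8 averaged 1 TPM or more and 6 of them were above 0 in all 6 libraries. Of the 14 heavy-strand genes, 10 averaged 1 TPM or more, 2 were above 0 in all 6 libraries, and MT-TM, MT-TW and MT-TR were listed at 0 in all 6. MT-TK was above 0 only in MYH7B ASO replicate 2, at 2.04 TPM.

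The 3 tRNA genes with high values that stand for this group, all of the light strand, are shown whole in GENCODE 29 on GRCh38, 5′ to 3′ on the light-strand transcript. MT-TA (alanine) lies at chrM:5587-5655, MT-TC (cysteine) at chrM:5761-5826 and MT-TE (glutamate) at chrM:14674-14742. None of the letters is marked.
MT-TA: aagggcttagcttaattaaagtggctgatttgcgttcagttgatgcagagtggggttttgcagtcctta
MT-TC: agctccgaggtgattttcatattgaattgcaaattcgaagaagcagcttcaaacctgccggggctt
MT-TE: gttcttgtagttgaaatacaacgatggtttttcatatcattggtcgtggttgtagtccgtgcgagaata
MT-TA and MT-TC lie in a run of light-strand tRNA genes between MT-ND2 and MT-CO1, and MT-TE lies next to MT-ND6. The genes are 69, 66 and 69 bases long.

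MT-TA was the highest tRNA, at 274, 208 and 97.4 TPM against 130, 173 and 98.1 TPM, and its groups overlapped (log2 fold change −0.44, SE 0.36, limma adjusted p = 0.611). MT-TC stood at 200.2, 165 and 73.4 TPM against 149.7, 159.9 and 144.6 TPM, and MT-TE at 135, 55.9 and 31.5 TPM against 52.1, 67.4 and 56.8 TPM. In all 3 genes scrambled ASO replicate 1 was the highest and scrambled ASO replicate 3 the lowest. MT-TN, MT-TY and MT-TS1, which carry asparagine, tyrosine and serine, ranged from 41.3 to 115, from 18.3 to 85.4 and from 31.0 to 42.6 TPM. MT-TS1 varied least between libraries among the tRNAs above 0 in all 6.

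Both leucine tRNAs, of the heavy strand, were lower on average with the MYH7B ASO and did not pass the test. MT-TL2 stood at 38.5, 17.4 and 8.09 TPM against 10.2, 5.96 and 2.58 TPM, with overlap between scrambled ASO replicate 3 and MYH7B ASO replicate 2 (log2 fold change −1.52, SE 0.56, limma adjusted p = 0.243). MT-TL1 stood at 47.1, 30.3 and 5.39 TPM against 5.79, 14.9 and 10.3 TPM (log2 fold change −0.99, SE 0.68, limma adjusted p = 0.543). The valine tRNA MT-TV, which lies between the rRNAs, was at 17.7, 7.99 and 0 TPM with the scrambled ASO and at 0 in each library of the MYH7B ASO. The glutamine tRNA MT-TQ was at 0, 2.49 and 0 TPM against 4.08, 2.98 and 2.58 TPM and was the 1 tRNA without overlap. MT-TF, the phenylalanine tRNA, was at 0, 24.9 and 0 TPM against 4.08, 5.96 and 5.16 TPM. The remaining heavy-strand tRNAs that averaged 1 TPM or more, MT-TH, MT-TD, MT-TS2, MT-TT, MT-TI and MT-TG, and the light-strand MT-TP were each listed at 0 in 2 or more of the 6 libraries and reached at most 32.4 TPM. No fold is given for a tRNA listed at 0 in a library of the comparison.

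Leaving out 1 library turned 1 tRNA into a call in each of 2 cases. Without scrambled ASO replicate 2, MT-TF had a limma adjusted p of 0.0239, where 149 of 15931 genes were called. Without scrambled ASO replicate 3, MT-TV had a limma adjusted p of 0.0169, where 133 of 15941 genes were called. Each call came from leaving out the library that made the groups overlap, at 24.9 TPM for MT-TF and 0 TPM for MT-TV.

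**Figure D4:**
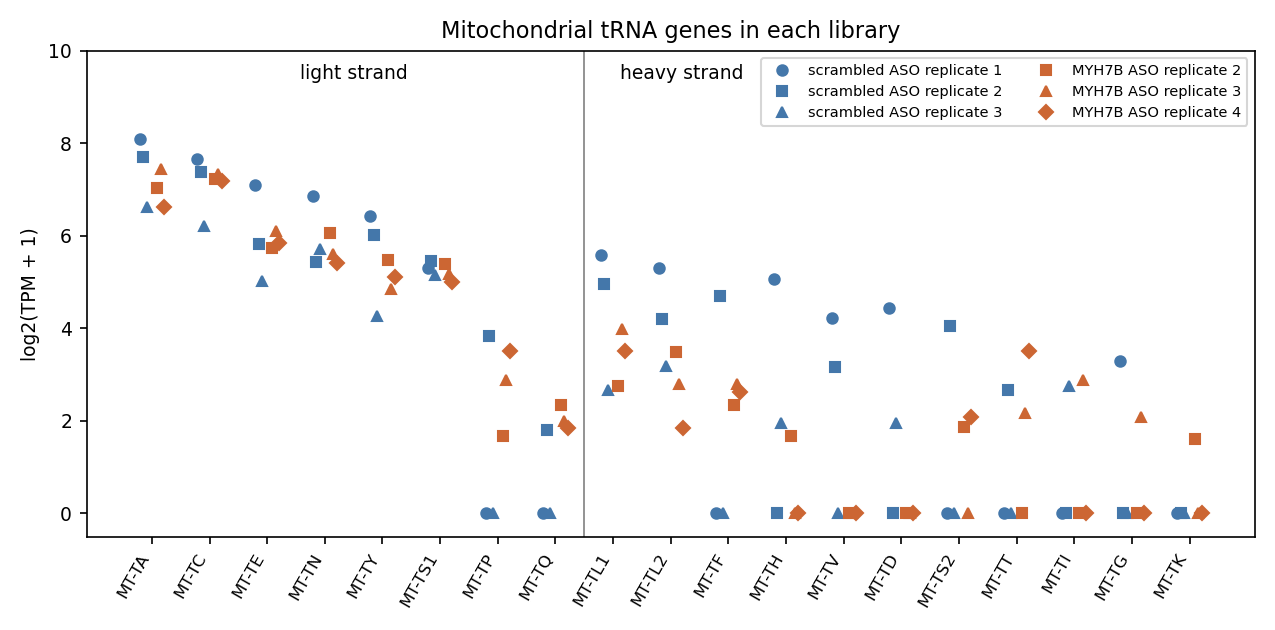
Log2(TPM + 1) (vertical axis) of the 19 tRNA genes above 0 in at least 1 of the 6 libraries, 1 marker per library, with light-strand genes on the left and heavy-strand genes on the right. MT-TA reaches 274 TPM, and most heavy-strand genes have libraries listed at 0.

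The low tRNA values came in whole steps. In each library, the TPM of the 11 tRNA genes of 68 or 69 bases were whole multiples, within 0.001 of a step, of 1 common value, which was 2.94, 2.66 and 2.87 TPM with the scrambled ASO and 2.17, 3.21 and 5.16 TPM with the MYH7B ASO. MT-TA then held at least 93, 78 and 34 steps against 60, 54 and 19, and MT-TS1 at least 13, 16 and 12 against 19, 11 and 6. A value near 1 step rests on very little sequence. In the authors' deposited table the mean normalized count was 60.5 for MT-TA, 53.9 for MT-TC, 7.53 for MT-TL1 and 5.46 for MT-TL2. The lowest of the mRNAs and rRNAs there was MT-ND4L, at 28196.

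Nuclear copies of mitochondrial genes, short stretches of mitochondrial DNA inserted in the chromosomes, share sequence with the genes above, and reads could be split between them. Of 407 such genes in the table, 328 were listed at 0 in all 6 libraries and 8 averaged 1 TPM or more. MTATP6P1, a copy of MT-ATP6, held nearly all of their TPM, at 2833, 2089 and 1946 TPM with the scrambled ASO and 1452, 2355 and 2350 TPM with the MYH7B ASO. It equalled 11.8%, 10.1% and 10.9% of MT-ATP6 against 7.48%, 11.1% and 10.6%, and MYH7B ASO replicate 2, the library low in MT-ATP8, was again the lowest. The other copies summed to 74.9 to 96.0 TPM. Behind MTATP6P1 the highest were MTND2P28 (25.2 to 54.7 TPM), MTCO1P12 (12.4 to 31.5 TPM), MTND1P23 (4.22 to 17.7 TPM) and MTND4P12 (1.27 to 2.33 TPM). None of the 8 tested was called by limma (beside 1.66% of all genes tested), and 4 had a log2 fold change above 0 (beside 45.2%).

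Nuclear genes copy mitochondrial DNA and transcribe, cut and protect its RNA. None of a list of 42 passed the test, beside 1.66% of all genes tested. All 42 were tested, 4 had an unadjusted p under 0.05 (beside 15.2% of all genes), 8 did not overlap between groups (beside 21.2%), and 16 had a log2 fold change above 0 (beside 45.2%). The median was −0.07. By role, values above 0 were found for 5 of 9 transcription genes, 2 of 5 replication genes, 4 of 10 processing genes, 2 of 6 tRNA modification genes and 3 of 7 genes of stability and decay. For the 5 regulators of biogenesis all values were below 0.

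Among the transcription genes, POLRMT, the polymerase itself, stood at 15.7, 21.8 and 19.4 TPM with the scrambled ASO and at 20.2, 21.9 and 16.2 TPM with the MYH7B ASO (log2 fold change 0.04, SE 0.19, limma adjusted p = 0.949). TFAM, which packs and bends mitochondrial DNA, stood at 27.1, 16.6 and 19.3 TPM against 20.5, 18.2 and 17.2 TPM (log2 fold change −0.14, SE 0.20, limma adjusted p = 0.784). TFB2M, which opens the promoter, stood at 5.92, 5.93 and 7.87 TPM against 9.16, 6.70 and 7.64 TPM (log2 fold change 0.22, SE 0.20, limma adjusted p = 0.637). All 3 genes overlapped between the groups.

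Among the genes of RNA stability, LRPPRC, which binds and protects mitochondrial mRNAs, stood at 56.0, 37.0 and 30.5 TPM against 29.3, 20.6 and 24.8 TPM. The groups did not overlap (log2 fold change −0.67, SE 0.24, limma adjusted p = 0.230). In the authors' deposited table its shrunken log2 fold change was −0.55, with an adjusted p of 0.0564. Its partner SLIRP stood at 174, 178 and 115 TPM against 196, 137 and 138 TPM, with overlap (log2 fold change 0.02, SE 0.21, limma adjusted p = 0.975). MTPAP, which adds the tail, stood at 5.87, 8.66 and 7.92 TPM against 8.64, 9.24 and 11.2 TPM (log2 fold change 0.34, SE 0.20, limma adjusted p = 0.469).

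Of the 5 biogenesis regulators, 2 did not overlap between the groups, beside 21.2% of all genes. They were PPARGC1A and PPARGC1B, both coactivators of nuclear genes for mitochondria. They are named here after their values were seen. PPARGC1A stood at 11.4, 16.3 and 16.2 TPM with the scrambled ASO and at 5.49, 6.97 and 7.58 TPM after the MYH7B ASO. The log2 fold change was −1.02 (SE 0.20, limma adjusted p = 0.0541), and in the authors' deposited table −0.86, with an adjusted p of 0.000307. PPARGC1B stood at 2.34, 1.88 and 2.00 TPM against 1.27, 1.01 and 1.30 TPM (log2 fold change −0.49, SE 0.30, limma adjusted p = 0.488). The 13 mitochondrial mRNAs in the same libraries had a median log2 fold change of 0.02.

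The genes whose pattern over the 6 libraries was most like that of the summed mitochondrial mRNAs were POLB (r = 0.974), PPP1CC (r = 0.971), PFKM (r = 0.940), PLXNA2 (r = 0.920) and ZNF302 (r = 0.914). The likeness is Pearson's r of log2(TPM + 1) with the log2 sum, among 7520 other genes of at least 10 TPM, as a description over 6 points. All 5 genes were lowest in scrambled ASO replicate 3, the library with the lowest mitochondrial share. That follows from how they were picked and is no separate result. Among so many genes, a high r over 6 points can also arise by chance.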

How the data were processed

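The authors deposited TPM for each library, per the file headers, and each column sums to the same total. Per the labels, RNA was selected by poly-A tail. The submitters' processing notes name DESeq2 and the build GRCh38.p13; quantifier, strand use and annotation release are not given in the sources used here. The authors' deposited table holds a mean normalized count (a signal over its libraries), log2 fold changes with standard errors, a score (the test statistic), and each p-value before and after adjustment; the fold changes were shrunken per its name, and which libraries entered it is not stated. No column was left unmapped.

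Genes that averaged 1 TPM or more in the 6 libraries were fitted together with limma 3.58.1 in R 4.3.3 (lmFit and eBayes with trend) on log2(TPM + 1), with Benjamini-Hochberg adjustment over all genes and an adjusted p under 0.05 as a call. This scale understates changes of low genes. TPM keeps no depth, so no count test was run and no counting interval is given. Shares and ratios were compared with 2-sided exact permutation tests over libraries. Tables and plots were made with pandas 2.3.3, numpy 2.4.6 and matplotlib 3.10.9 under Python 3.11.15, and the fit was tested on simulated data.

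The column of MYH7B ASO replicate 1 holds 58721 values and 1513 empty positions. Its median correlation with the other libraries across genes was 0.411 as deposited and 0.954 in the gene order of GENCODE 29, so it was left out of the comparisons. Positions and sequences are those of GENCODE 29 on GRCh38.

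Named were all mRNAs and rRNAs, tRNAs that averaged 1 TPM or more, MYH7B, 6 genes of a nuclear list and any called, the 5 highest nuclear copies, RN7SL1, RN7SL2 and the 5 genes of most similar pattern. PPARGC1A, PPARGC1B, RNU2-2P, RNU1-1, RMRP and single cell type markers were named after their values were seen. RMRP has more than 1 gene entry, and the higher was used. Members and lists were chosen with earlier results of these data known. Alternatives were other pseudocounts, filters and scalings, 7 libraries, replicate blocks, and leaving out each library.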

Additional observations from a re-analysis of the deposited data

Results flagged for a closer look

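In the MYH7B ASO group of 4 libraries, with the column of replicate 1 put in the gene order of GENCODE 29, each of 21 measures was searched for a library that stood apart. Chance marks about 1 in 20 such groups. Replicate 1 stood apart in 4 of the 21, which are not separate, since the 3 genes are parts of the mitochondrial share. Its mitochondrial share of TPM was 17.2%, and 31.2% to 33.6% in the other 3. MT-RNR1 stood at 4518 TPM, and at 10752 to 11892 TPM in the others. MT-ND2 stood at 4298 TPM, and at 6768 to 7176 TPM in the others, and MT-ND4 at 10371 TPM, and at 18870 to 20549 TPM in the others. In the same column all 22 mitochondrial tRNAs were listed at 0, the RNAs without a poly-A tail summed to 143287 TPM, and the nuclear copy MTCO1P12 stood at 538 TPM. The part of the different gene order in these values was not tested.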

How the results depend on the processing

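No mitochondrial mRNA or rRNA was called under any alternative run. The mitochondrial genes called went from 0 to 0 to 1 on leaving out single libraries. Over all genes the 265 calls became 40 with no filter on low values, 170 with 7 libraries, and 53 to 149 on leaving out single libraries. Leaving out single libraries moved the difference in mitochondrial share from −0.600 to 2.28 percentage points, in rRNA share from −0.745 to 1.198, in mRNA share from −1.14 to 0.846, and in the log2 ratio of MT-ND6 to the heavy-strand mRNAs from −0.042 to 0.21. The mitochondrial share difference was −2.54 with 7 libraries, where rRNA share gave −0.322 and mRNA share 0.416. After quantile rescaling it was −0.239. That rescaling gives every library the same set of values, and the mitochondrial mRNAs and rRNAs are among the highest genes. It therefore largely fixes their summed share in advance, and its value cannot show a dependence on the processing. MYH7B kept its direction, with a limma adjusted p of 0.0779 without the filter, 0.0525 with 7 libraries and 0.0618 without MYH7B ASO replicate 4.

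The libraries share only a number in the labels. Correlations of same-numbered deviations were 0.12 and 0.27 by title number and −0.18 and −0.10 by description number. With a replicate block, 0 genes were called by either numbering, with 1718 (title) and 1096 (description) at an unadjusted limma p under 0.05, and the limma adjusted p of MYH7B was 0.331 and 0.720. The title block turned the tRNA share difference to 0.00364 and the log2 fold changes of MT-ND2 to 0.023, MT-TA to 0.077, MT-TN to 0.26, MT-TY to 0.013, MT-TE to 0.49 and TFAM to 0.10. The description block turned the rRNA share to −0.103, the mRNA share to 0.111, MT-ND2 to 0.027, MT-ATP8 to 0.23, MT-TE to 0.55, MT-CYB to 0.015, POLRMT to −0.12 and SLIRP to −0.057.

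Log2 fold changes that turned with 7 libraries were MT-RNR1 −0.16, MT-RNR2 −0.21, MT-CO1 −0.013, MT-ATP6 −0.11, MT-ND5 −0.18, MT-ND6 −0.14 and SLIRP −0.0093. The 8 tRNAs above 0 in the other 6 libraries are listed at 0 in the added one and got no value there. With an equal mitochondrial total MT-ATP6 gave −0.048, POLRMT −0.024 and SLIRP −0.042. Median-ratio rescaling gave MT-ND2 0.022 and MT-ND4 0.049, quantile rescaling SLIRP −0.011, and nuclear TPM alone MT-ND4 0.018. On leaving out single libraries the ranges were −0.093 to 0.13 for MT-ATP6, −0.73 to 0.065 for MT-ATP8, −0.11 to 0.038 for MT-ND2, −0.058 to 0.083 for MT-ND4, −0.16 to 0.070 for MT-ND4L, −0.14 to 0.22 for MT-ND5 and −0.049 to 0.28 for MT-ND6. They were −0.054 to 0.35 for MT-RNR1, −0.12 to 0.22 for MT-RNR2, −0.26 to 0.45 for MT-TC, −0.57 to 0.47 for MT-TE, −0.60 to 0.12 for MT-TN, −0.088 to 0.16 for POLRMT, −0.18 to 0.13 for SLIRP and −0.29 to 0.049 for TFAM. In all, 47 of these values turned direction, 450 kept direction and side of the threshold, and 5, all for MYH7B, lost the call; the causes were not tested. Depth is unknown, and the tRNAs rest on low counts.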
